A study of Homo sapiens with 18 samples.

Results

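Chromatin accessibility was described at 10 genes of the mesenchymal transition, ZEB1, ZEB2, SNAI1, SNAI2, TWIST1, TWIST2, VIM, CDH2, CDH11 and PRRX1, in 6 established human ovarian cancer cell lines. The measurement was ATAC-seq, in which the Tn5 transposase inserts sequencing adapters into open DNA, so that the read density of a region reports how accessible it is. A window of the deposited table was a member when it overlapped the annotated span of one of these genes extended by 10 kb on both sides (GENCODE annotation on GRCh37, hg19). This gave 48 of the 89428 windows, of which 23 (of 27375) were promoter windows, reaching into the stretch from 1 kb upstream to 100 bp downstream of a protein-coding start of the gene, and 25 (of 62053) were distal windows, which is every other member window. Each window covers 1001 bp and shares 101 bp with its neighbours, and it is named here by its gene and by the distance of its centre from the start of the canonical transcript, so that VIM +0.4 kb is centred 0.4 kb downstream of the VIM start.

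The lines form 3 pairs, in which a line sensitive to platinum is matched with a resistant one, and all were grown in RPMI-1640 with glutamine and fetal bovine serum. CP70 is a resistant derivative of the ovarian line A2780 that was obtained in culture. PEA1 and PEA2 are lines from ascites cells of a single patient with high-grade serous ovarian cancer, the former predating platinum treatment and the latter taken at relapse. PEO1 and PEO4 come from a second such patient, both after platinum-based treatment, sampled while the tumour was sensitive and once it was resistant. Each line has 3 libraries, and the labels do not say whether these came from separate cultures, so p-values measure the spread between libraries, which may be technical. Each resistant line is 1 line, so a difference within a pair belongs to those 2 lines.

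Epithelial to mesenchymal transition is the programme by which epithelial cells loosen their junctions and take on a motile, fibroblast-like state. ZEB1, ZEB2, SNAI1 and SNAI2 are zinc finger repressors that bind E-boxes in the promoters of junction genes such as CDH1, TWIST1 and TWIST2 are basic helix-loop-helix factors, and PRRX1 is a homeobox factor that can induce the same state. VIM (vimentin, an intermediate filament protein), CDH2 (N-cadherin) and CDH11 (a cadherin of mesenchymal cells) are structural products by which the mesenchymal state is usually recognised.

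Library totals recovered from the deposited values ranged from 8963079 reads in a PEO1 library to 60435027 in an A2780 library. Between 9.26% ± 0.83 (SD, n = 3) of the reads in A2780 and 39.9% ± 0.95 in PEO1 fell in the table's windows, with 13.1% ± 2.2 in CP70, 15.3% ± 2.1 in PEA1, 18.9% ± 1.8 in PEA2 and 34.4% ± 1.5 in PEO4. FPKM levels of open windows across lines move with this share, and its part in a difference between lines was not tested. Some levels are therefore also given as a percentile, which is the rank of the line's mean among all promoter windows, or all distal windows, of the table in the same line. For the serous list, 5 of 6 markers had a start-site window, with a median percentile (lowest to highest) of 67.9 (3.74 to 91.0) for PEO1, 58.9 (14.7 to 83.3) for PEA2, 55.8 (3.42 to 95.2) for PEO4, 38.9 (2.06 to 68.7) for PEA1, 22.0 (3.72 to 33.1) for A2780 and 14.9 (8.27 to 29.7) for CP70. A start-site window was present for 0 of 3 endothelial, 1 of 3 blood and 2 of 9 fibroblast markers. The blood marker CD14 lay at percentile 80.3 in PEA2, 54.4 in PEO1, 46.9 in PEA1, 27.05 in PEO4, 8.46 in CP70 and 8.42 in A2780. The fibroblast marker THY1 lay between 4.84 (PEA2) and 58.8 (CP70), and COL1A2 between 1.82 (PEA1) and 34.6 (A2780). The part of other cell types in the results was not tested.

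Sequences from some windows that differ between lines are given here in the GRCh37 reference, plus strand. Capitals mark matches on either strand to GGGCGG (the GC box) and TGANTCA (the AP-1 site). Whether these stretches have a part in the differences was not tested. The first is the 200 bases before the canonical VIM start (chr10:17270040-17270239), which runs from the VIM -0.5 kb window into the VIM +0.4 kb window, both called lower in PEA2.
VIM upstream: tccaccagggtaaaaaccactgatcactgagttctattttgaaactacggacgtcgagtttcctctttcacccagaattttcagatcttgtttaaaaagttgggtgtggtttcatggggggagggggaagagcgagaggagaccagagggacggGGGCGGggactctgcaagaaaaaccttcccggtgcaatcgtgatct
The next is the 200 bases before VIM exon 2 (chr10:17271075-17271274), upstream of a further protein-coding start that lies 1037 bp after the canonical one, in the window with the highest VIM level.
VIM before exon 2: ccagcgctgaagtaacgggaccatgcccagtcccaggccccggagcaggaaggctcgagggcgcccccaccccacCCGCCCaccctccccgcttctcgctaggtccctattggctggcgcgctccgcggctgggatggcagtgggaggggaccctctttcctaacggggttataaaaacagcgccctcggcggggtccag
The VIM +0.4 kb window holds 2 AP-1 matches inside exon 1, at chr10:17270443-17270471 and chr10:17270514-17270542.
VIM AP-1 match, first: ccgctgagactTGAATCAatctggtctaa
VIM AP-1 match, second: gcagggcgcggTGAGTCAccgccggtgac
The last sequences are the surroundings of an AP-1 match in the window downstream of TWIST2 that was called higher in PEA2 (chr2:239836419-239836559) and in a PRRX1 intron window that is high in the PEO lines (chr1:170677339-170677479).
TWIST2 downstream: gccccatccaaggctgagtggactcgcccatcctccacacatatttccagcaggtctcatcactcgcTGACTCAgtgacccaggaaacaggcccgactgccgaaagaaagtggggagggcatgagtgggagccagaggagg
PRRX1 intron: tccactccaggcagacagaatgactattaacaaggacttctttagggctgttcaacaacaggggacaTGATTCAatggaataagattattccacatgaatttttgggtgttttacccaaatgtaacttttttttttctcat

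Over whole windows of 1001 bp, GGGCGG was found in 21 of 23 member promoter windows, against 78.9% of all promoter windows of the table, and in 8 of 25 distal ones, against 30.9%. CACCTG, the E-box of ZEB and SNAI proteins and 1 form of the general E-box CANNTG, was found in 13 of 23 and 19 of 25, against 59.3% and 63.2%. TGANTCA was found in 5 of 23 and 12 of 25, against 17.8% and 47.4%. GGAATG, the TEAD site, was found in 6 of 23 and 10 of 25, against 37.1% and 49.7%, and the general E-box CANNTG was present in 47 of 48 member windows and 98.5% of all windows. The members' shares were near those of the table for each of these motifs.

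The first comparison asked how many member windows differed between the resistant and the sensitive line of each pair. Calls required a log2 fold change (resistant minus sensitive, on log2(FPKM + 0.1)) above 2 in size and a limma adjusted p under 0.001, and a window is said to have risen or fallen when the adjusted p was under 0.05. In PEA2, 8 of the 43 member windows tested were called lower, against 1.42% of all windows tested, and 1 was called higher, against 11.2%. In CP70, 0 of 31 were called in either direction, where the table gave 0.428% higher and 0.369% lower. In PEO4, 0 of 42 were called higher (2.72% of all windows) and 1 was called lower (5.78%). The 8 lower calls in PEA2 were 7 windows of VIM and 1 of ZEB1, and the VIM windows are neighbours at 1 locus rather than separate observations. All windows of the table exceed 2 FPKM in at least 2 libraries. VIM -1.4 kb, VIM -0.5 kb and VIM +6.7 kb exceed it only in PEA1 libraries. VIM +11.2 kb does so in PEA1 and in 1 CP70 library. Lower levels in PEA2 were thus favoured in advance for these windows. For the counts of 0 by limma, 15 member windows were higher and 4 lower in CP70 at an unadjusted p under 0.05, and 12 were higher in PEO4. By edgeR and DESeq2 on the recovered reads the counts in CP70 were also 0, and those called higher in PEO4 were 0 and 1. Of all 37128 windows tested in CP70, edgeR called 216 higher and 153 lower, and DESeq2 70 and 257. In PEO4 they called 2300 and 3390 of 77654 higher.

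By class, 15 of 23 member promoter windows fell in PEA2 and 3 rose, where 32.7% of all promoter windows fell and 20.9% rose, and the median log2 fold change was -1.05 for the members and -0.17 for all promoter windows. Of the 20 distal windows tested in PEA2, 9 rose and 7 fell, against 56.3% and 14.6% of all distal windows. In CP70, 7 of 20 promoter windows rose and 3 fell, against 47.4% and 1.39%, and 4 of 11 distal windows rose and 1 fell, against 47.5% and 3.62%. In PEO4, 7 of 21 promoter windows rose and 7 fell, against 24.9% and 32.4%, and 5 of 21 distal windows rose and 8 fell, against 20.3% and 52.6%. The middle of the table lay above 0 in CP70, where the median log2 fold change of all windows was 0.59 (0.27 for the members), so a member with a value near 0 there lies below the middle of the table.

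**Figure D1:**
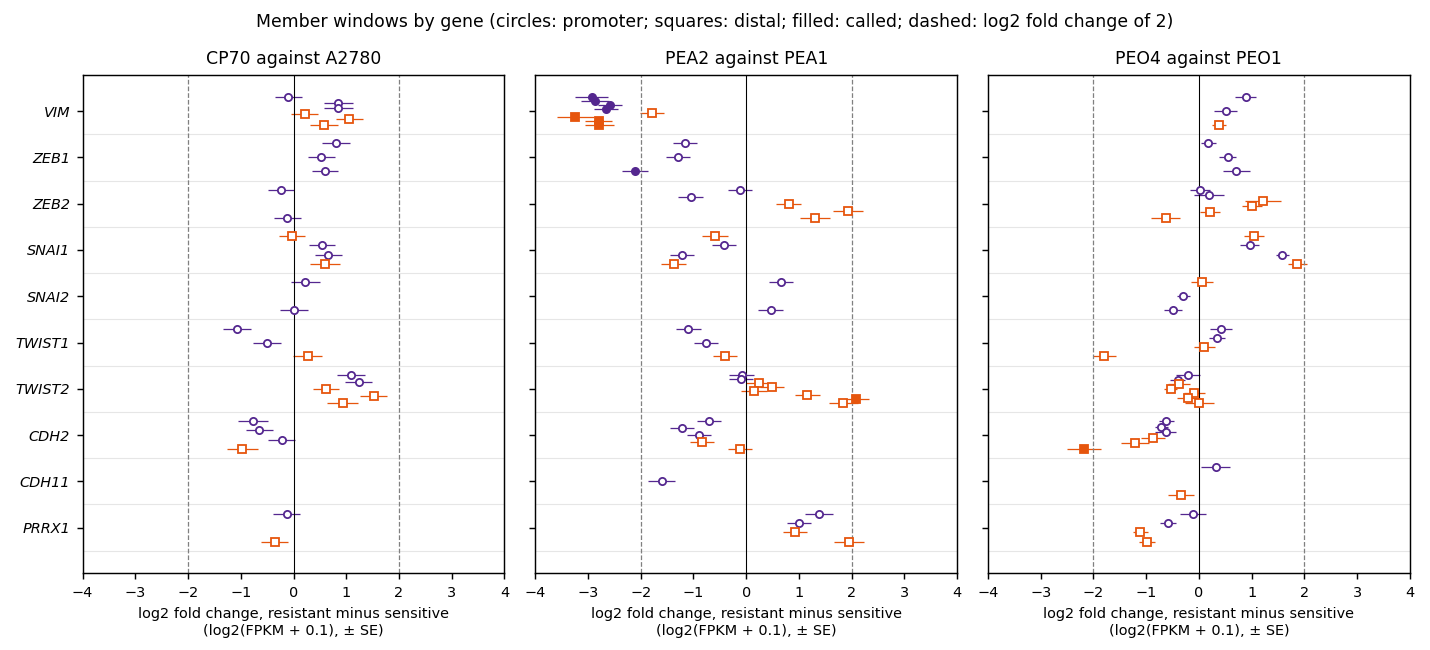
Log2 fold change of every member window tested in each pair (x axis, resistant minus sensitive on log2(FPKM + 0.1), bars ± SE), by gene (y axis), with circles for promoter and squares for distal windows, filled where called and with dashed lines at the call threshold of 2. In PEA2 the 8 VIM windows lie between -3.24 and -1.79, all 4 SNAI1 windows lie above 0 in PEO4 and below 0 in PEA2, and the 6 CDH2 windows lie below 0 in PEO4.

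VIM (chr10:17270240-17279592, plus strand) showed the largest differences among the members. At VIM +0.4 kb, which holds the canonical start and exon 1, the 3 PEA1 libraries read 10.5, 11.5 and 8.54 FPKM and the 3 PEA2 libraries 1.70, 1.50 and 1.60 FPKM. The groups do not overlap, and the lowest PEA1 library stands far above the highest PEA2 library. The means were 10.2 ± 1.49 and 1.60 ± 0.10 FPKM (SD, n = 3), which is -2.58 ± 0.23 (SE) as a log2 fold change, with a limma adjusted p of 2.93e-28, and the percentile among promoter windows went from 99.4 in PEA1 to 33.1 in PEA2. The signal was not confined to the promoter: VIM -1.4 kb and VIM -0.5 kb upstream, VIM +1.3 kb over exon 2, VIM +6.7 kb over exons 6 and 7, and VIM +10.3 kb and VIM +11.2 kb downstream of the gene were all called lower, with log2 fold changes from -3.24 to -2.67. VIM +2.2 kb over exons 2 and 3 fell by 1.79 on the log2 scale (adjusted p = 4.4e-14) and was not called.

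The region around VIM was lower in PEA2 as a whole. In the 5 Mb of chromosome 10 that hold the gene, the median log2 fold change of the 67 other windows tested was -1.37, and 92.0% of the windows lay below 0. With the median fold change of that stretch removed, the 8 VIM windows had log2 fold changes between -1.73 and -0.27 and 0 were called, and with each library's median level of the stretch removed they lay between -2.18 and -0.72. In bulk libraries, fewer cells with an open site, less signal per cell and fewer copies of the region cannot be told apart.

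No VIM window tested fell in CP70 or PEO4. The A2780 libraries read 2.44, 2.93 and 2.00 FPKM at VIM +0.4 kb and the CP70 libraries 5.83, 4.13 and 3.69 FPKM, without overlap, a rise of 0.85 ± 0.28 (adjusted p = 0.01) on the log2 scale that was 0.27 after median centring of each library. The PEO1 libraries read 1.92, 1.75 and 1.56 FPKM and the PEO4 libraries 3.37, 3.70 and 2.89 FPKM, again without overlap, a rise of 0.89 ± 0.20 (adjusted p = 0.000167). In FPKM the order of the 6 lines was PEA1, CP70, PEO4, A2780, PEO1, PEA2, and by percentile it was PEA1 (99.4), CP70 (83.6), A2780 (76.6), PEO4 (36.0), PEA2 (33.1), PEO1 (11.7). On the log2 FPKM scale PEA1 stood above CP70 (difference 1.16, adjusted p = 4.14e-06), A2780 stood above PEO1 (0.46, adjusted p = 0.0339), and the neighbours CP70 and PEO4, PEO4 and A2780, and PEO1 and PEA2 did not differ beyond their spread (adjusted p = 0.0557, 0.0504 and 0.625).

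VIM +2.2 kb, which like VIM +1.3 kb also lies over the promoter of the antisense RNA VIM-AS1, had another order. Its mean level was 8.85 ± 0.61 FPKM in PEO4, 6.78 ± 0.91 in PEO1, 6.01 ± 1.48 in PEA1, and between 1.15 and 1.64 in PEA2, CP70 and A2780. In PEO1 it lay at percentile 89.95 of the distal windows, while VIM +0.4 kb lay at 11.7 of the promoter windows and VIM +6.7 kb and VIM +10.3 kb, the latter with 1, 3 and 4 reads in its 3 libraries, lay at 1.40 and 4.64 of the distal windows. Downstream of the gene, VIM +10.3 kb read 3.97, 5.42 and 3.12 FPKM in PEA1 and 0.769, 0.289 and 0.532 FPKM in PEA2. In CP70 the same window read 4.62, 2.04 and 2.09 FPKM, with replicate 1 above the other libraries, and in A2780 1.22, 1.35 and 1.17 FPKM.

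**Figure D2:**
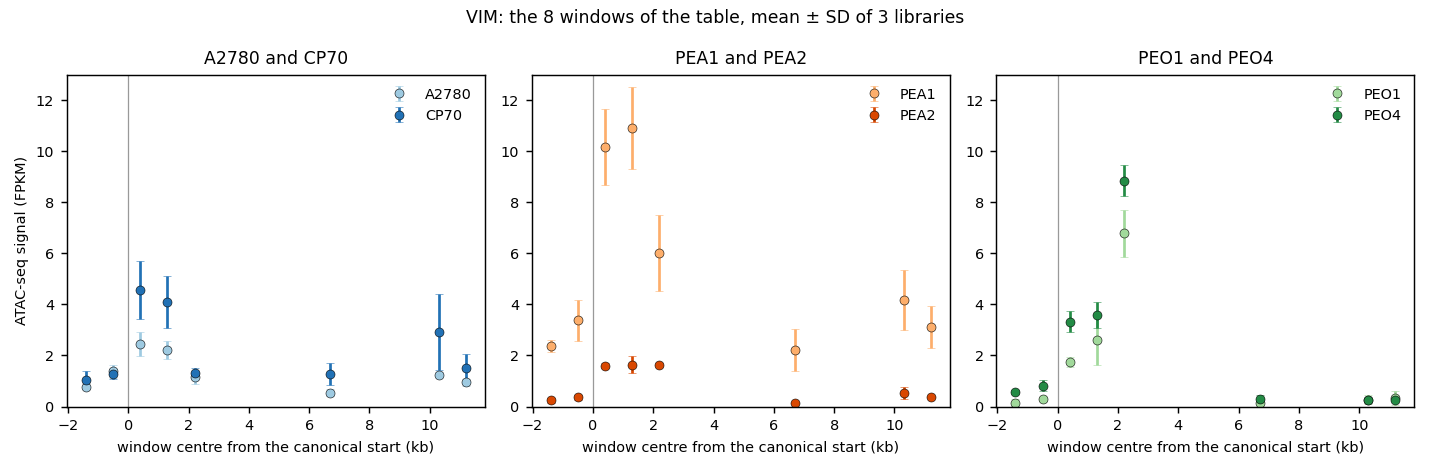
Mean ± SD (n = 3) of the ATAC-seq signal (y axis, FPKM) in the 8 VIM windows of the table against the distance of the window centre from the canonical start (x axis, kb), one panel per pair. PEA1 exceeds PEA2 in every window, and the PEO lines have their highest point at +2.2 kb.

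SNAI1 (chr20:48599517-48605423, plus strand), a direct repressor of CDH1, had 4 windows in the table and rose in PEO4 and fell in PEA2. At SNAI1 +0.1 kb, which holds the start and exon 1, the PEO1 libraries read 7.39, 7.07 and 7.80 FPKM and the PEO4 libraries 23.1, 26.5 and 18.4 FPKM. In the other patient's pair the PEA1 libraries read 7.63, 6.39 and 5.51 FPKM and the PEA2 libraries 2.47, 2.95 and 2.79 FPKM. Neither pair overlaps, and every PEO4 library lies above all other libraries of the series. The log2 fold change was 1.58 ± 0.12 (SE, adjusted p = 3.04e-14) in PEO4 and -1.21 ± 0.23 (adjusted p = 3.75e-07) in PEA2. SNAI1 +1.0 kb over exon 2 rose by 1.87 ± 0.18 in PEO4, which became 2.21 and a call after median centring, and fell by 1.37 ± 0.24 in PEA2.

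All 4 SNAI1 windows rose in PEO4, including SNAI1 -3.5 kb (1.04 ± 0.19) and SNAI1 -0.8 kb (0.96 ± 0.18), where the 200 other windows of the same 5 Mb had a median of 0.58. SNAI1 -3.5 kb exceeds 2 FPKM only in PEO4 and 1 PEA1 library, so its rise was favoured in advance. In PEA2, 3 of the 4 fell, and SNAI1 -0.8 kb had a log2 fold change of -0.42 ± 0.23 (adjusted p = 0.105). The percentile of SNAI1 +0.1 kb was 95.0 in PEA1 and 96.5 in PEO4, against 64.8 in PEA2, 65.3 in PEO1, 62.4 in CP70 and 59.9 in A2780. In CP70 the window rose by 0.66 ± 0.26 (adjusted p = 0.029), which was 0.084 after median centring, 0.026 with GC correction and turned to -0.034 when the 5 Mb median level was removed. GC correction fitted each library's deviation from the window mean as a smooth trend on GC content and removed that trend. It used the windows tested in the pair.

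SNAI2 (chr8:49830157-49834299, minus strand), the paralogue of SNAI1 with the same target motif, differed less within pairs. Both windows that hold its start also lie over the promoter of an antisense long non-coding RNA, so their signal cannot be assigned to 1 gene. At SNAI2 -0.4 kb the PEA1 libraries read 3.62, 3.33 and 2.30 FPKM and the PEA2 libraries 5.72, 3.93 and 5.15 FPKM, a rise of 0.67 ± 0.23 (adjusted p = 0.00622) that turned to -0.39 or -0.12 when the 5 Mb median level or fold change was removed. The PEO1 libraries read 9.21, 10.5 and 8.92 FPKM and the PEO4 libraries 7.15, 8.45 and 7.57 FPKM, a fall of 0.30 ± 0.12 (adjusted p = 0.032) that turned to 0.044 after median centring. Upstream, SNAI2 -9.4 kb averaged 2.39 ± 0.29 FPKM in PEO1 and 2.53 ± 0.58 in PEO4 but between 0.20 and 0.33 FPKM in the other 4 lines, whose libraries all lie below those of the PEO lines, and its change within the PEO pair was 0.062 ± 0.21 (adjusted p = 0.802). Only PEO libraries exceed 2 FPKM in SNAI2 -9.4 kb, so it entered the table through them. Its place above the other 4 lines was thus favoured in advance.

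ZEB1 (chr10:31607424-31818742, plus strand), the zinc finger repressor most closely tied to loss of CDH1, had 3 windows in the table, all at its promoter. At ZEB1 +0.4 kb, which holds the canonical start and, like ZEB1 +1.3 kb, lies over the promoter of the antisense RNA ZEB1-AS1, the PEA1 libraries read 5.86, 6.23 and 4.22 FPKM and the PEA2 libraries 2.25, 2.49 and 1.69 FPKM. No PEA2 library reached the lowest PEA1 library, and the window fell by 1.30 ± 0.23 on the log2 scale (adjusted p = 4.33e-08). ZEB1 -0.5 kb fell by 1.17 ± 0.23, and ZEB1 +1.3 kb fell by 2.11 ± 0.24 (adjusted p = 2.95e-17) and was called, with 4.04, 3.96 and 3.07 FPKM in PEA1 and 0.660, 1.10 and 0.621 FPKM in PEA2. Without PEA2 replicate 3 the latter change was -1.98 and was not called. ZEB1 +1.3 kb was singled out after its values were seen, as was every other window named here that holds no canonical start and meets neither of the rules for distal windows (called without overlap, or highest mean of the gene), such as TWIST1 -0.6 kb, TWIST1 +96.6 kb, ZEB2 +3.7 kb, ZEB2 +130.6 kb, TWIST2 +80.3 kb, VIM -0.5 kb and PRRX1 +44.1 kb. Unlike VIM, the 134 other windows of the 5 Mb around ZEB1 had a median log2 fold change of 0.091, and ZEB1 +1.3 kb kept its call with that regional median removed (-2.18).

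In PEO4 ZEB1 +0.4 kb and ZEB1 +1.3 kb rose by 0.54 ± 0.16 and 0.71 ± 0.26 (adjusted p = 0.00309 and 0.0143), and ZEB1 -0.5 kb had a log2 fold change of 0.18 ± 0.14. In CP70 ZEB1 -0.5 kb and ZEB1 +1.3 kb rose by 0.81 and 0.60, while ZEB1 +0.4 kb overlapped between the lines, and the 33 other windows of that 5 Mb had a median of 0.76. The ZEB1 percentile at +0.4 kb was highest in PEA1, at 90.4, and lay between 32.2 and 58.4 in the other 5 lines.

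ZEB2 (chr2:145121931-145278624, minus strand), a paralogue of ZEB1, has no window over its canonical start, and its promoter windows at +2.8 kb and +3.7 kb lie at later protein-coding starts. ZEB2 +2.8 kb, which lies over the promoter of ZEB2-AS1 as well, had log2 fold changes of -0.24, -0.12 and 0.029 in CP70, PEA2 and PEO4, with overlapping libraries in each pair. ZEB2 +3.7 kb fell by 1.05 ± 0.23 in PEA2 (adjusted p = 2.02e-05), but it exceeds 2 FPKM only in PEA1 libraries, so that fall was favoured in advance. The 3 distal ZEB2 windows tested in PEA2 rose. ZEB2 +116.2 kb, over exon 6, read 0.352, 0.374 and 0.623 FPKM in PEA1 and 2.20, 1.68 and 2.00 FPKM in PEA2, a rise of 1.93 ± 0.29 (adjusted p = 1.26e-10) that was 0.70 with GC correction. ZEB2 +162.1 kb and ZEB2 +42.4 kb rose by 1.30 and 0.80 there, and turned to -0.031 and -0.46 with GC correction. In PEO4 ZEB2 +116.2 kb rose by 1.01 ± 0.20 (1.79 with GC correction). ZEB2 +130.6 kb, over exon 10, averaged 2.82 ± 0.74 FPKM in PEO1 and 3.23 ± 0.14 in PEO4 and at most 0.760 in the other lines. It read 0.641, 0.872 and 0.767 FPKM in PEA1 and 0.110, 0.0578 and 0.355 FPKM in PEA2, from 1 to 8 reads each in the latter, below the filter for a test within that pair. ZEB2 +130.6 kb exceeds 2 FPKM only in PEO libraries, and ZEB2 +42.4 kb only in PEA2 libraries. Their higher levels in those lines were favoured in advance by the entry of these windows into the table. ZEB2 +116.2 kb exceeds 2 FPKM only in PEO4 and 1 PEA2 library, so its rise in PEO4 was favoured in advance. ZEB2 +162.1 kb does so only in 1 PEA2 and 1 PEO1 library, so its rise in PEA2 was favoured as well.

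TWIST1 (chr7:19060614-19157259, minus strand) lost promoter signal in PEA2 and CP70. At TWIST1 -0.6 kb the A2780 libraries read 1.87, 1.92 and 1.69 FPKM and the CP70 libraries 0.758, 0.838 and 0.838 FPKM, a fall of 1.08 ± 0.26 (adjusted p = 0.000455). The PEA1 libraries read 3.59, 3.77 and 2.16 FPKM and the PEA2 libraries 1.43, 1.04 and 1.78 FPKM, a fall of 1.10 ± 0.24 (adjusted p = 8.65e-06). The region moved the other way in PEA2, where the 75 other windows of the 5 Mb had a median of 1.14, and with the regional fold change removed the TWIST1 value was -2.22 and passed the call. At the start itself, TWIST1 +0.3 kb fell by 0.76 ± 0.23 in PEA2 with overlapping libraries, had a log2 fold change of -0.50 ± 0.27 in CP70 (adjusted p = 0.103), and rose by 0.34 ± 0.15 in PEO4 (adjusted p = 0.0485). TWIST1 windows up to +1.2 kb also lie over the promoter of an antisense long non-coding RNA.

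TWIST1 +96.6 kb, at the far end of the annotated gene, was highest in PEO1. Its libraries read 4.76, 4.62 and 3.34 FPKM there and 1.16, 0.864 and 1.45 FPKM in PEO4, a fall of 1.80 ± 0.22 (adjusted p = 4.53e-09). The 62 other windows of the same 5 Mb had a median of -0.94, and the TWIST1 value was -0.87 with the regional fold change removed and -1.03 with GC correction. The mean was 1.28 ± 0.19 in PEA2 and at most 0.501 in A2780, CP70 and PEA1. Only PEO1 libraries exceed 2 FPKM at TWIST1 +96.6 kb, so it entered the table through PEO1. The higher level in PEO1 was thus favoured in advance.

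TWIST2 (chr2:239756673-239832230, plus strand), with 8 windows, had 5 windows tested in CP70, all of which rose, by 0.61 to 1.52 on the log2 scale, where 47.4% of all promoter and 47.5% of all distal windows rose. At TWIST2 +0.2 kb, which holds the start, the A2780 libraries read 1.25, 1.40 and 1.35 FPKM and the CP70 libraries 3.64, 3.17 and 3.06 FPKM, a rise of 1.24 ± 0.26 (adjusted p = 3.99e-05). The intron window TWIST2 +16.4 kb rose by 1.52 ± 0.26, from 0.680, 0.789 and 0.810 FPKM in A2780 to 2.65, 1.92 and 2.60 FPKM in CP70. After median centring these rises were 0.66 and 0.94 (adjusted p = 0.00853 and 0.0022), and the other 3 windows, TWIST2 -0.7 kb, TWIST2 +1.1 kb and TWIST2 +17.3 kb, had log2 fold changes of 0.51, 0.034 and 0.35 (adjusted p = 0.122, 0.95 and 0.456). TWIST2 +16.4 kb was also the most open distal TWIST2 window in the other lines, at 10.7 FPKM in PEO1, 7.34 in PEO4, 5.71 in PEA2 and 4.03 in PEA1, percentiles 95.4 to 97.7 among distal windows, against 71.4 in A2780. It rose in PEA2 (0.49 ± 0.23, adjusted p = 0.0497), with -0.22 once the 5 Mb median level was removed, and fell in PEO4 (0.53 on the log2 scale, adjusted p = 0.000307).

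In PEA2 the TWIST2 start had a log2 fold change of -0.10 ± 0.23 (adjusted p = 0.712) with overlapping libraries. TWIST2 +75.8 kb over the last exon rose by 1.16, and downstream of the gene TWIST2 +79.4 kb and TWIST2 +80.3 kb rose by 2.09 ± 0.24 (adjusted p = 3.6e-17) and 1.84 ± 0.27. At TWIST2 +79.4 kb the PEA1 libraries read 0.769, 0.903 and 0.815 FPKM and the PEA2 libraries 4.23, 3.47 and 3.86 FPKM, a gain in every library and the only member window called higher in any pair. The call was met in 11 of 17 alternative fits, and the change was 1.72 after median centring. TWIST2 +75.8 kb and TWIST2 +80.3 kb exceed 2 FPKM only in PEA2 libraries, so their rises were favoured in advance.

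**Figure D3:**
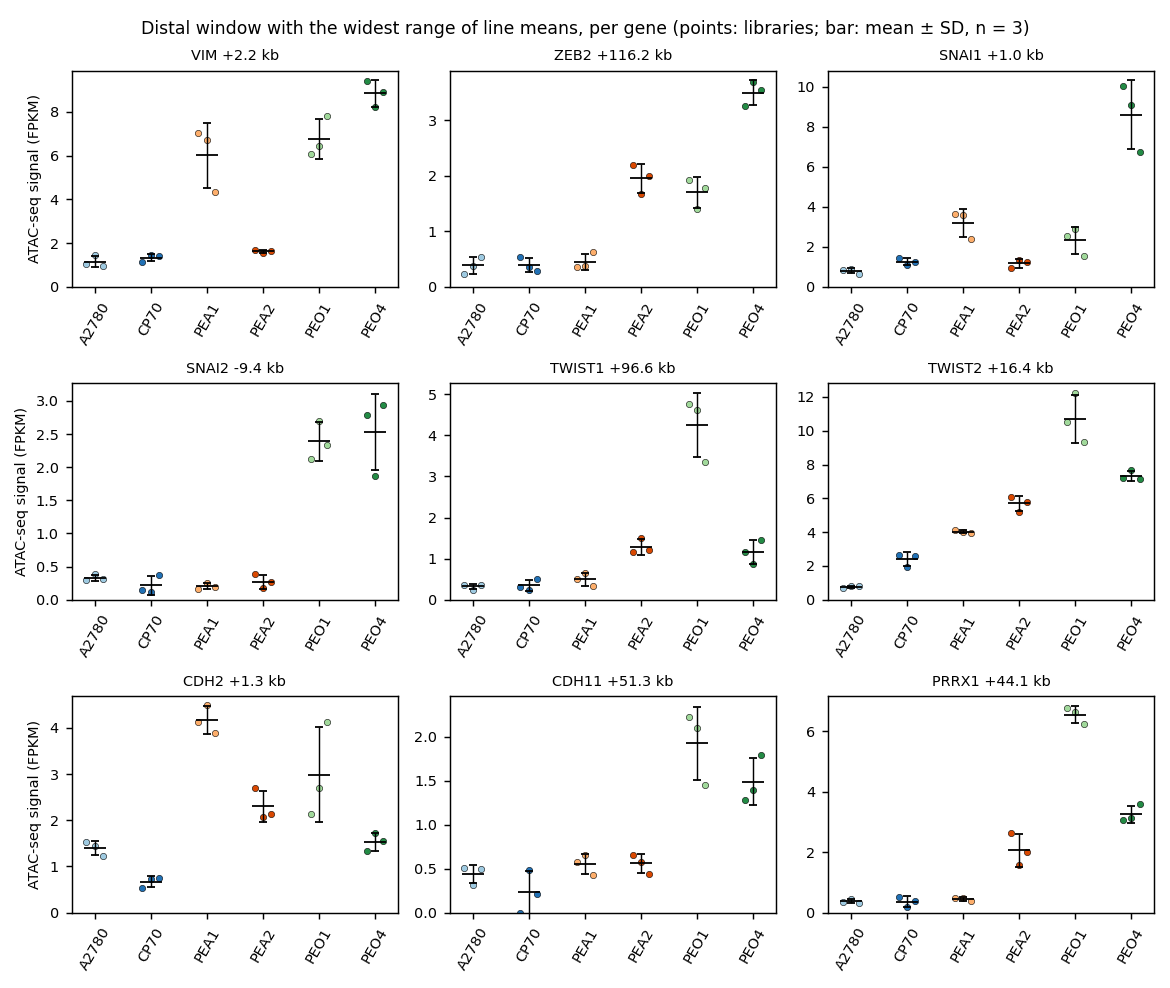
ATAC-seq signal (y axis, FPKM) of 1 distal window per gene, the one with the widest range of line means in FPKM, in the 6 lines (x axis), with a point per library and the mean ± SD (n = 3) and no panel for ZEB1, which has no distal window. VIM +2.2 kb, SNAI1 +1.0 kb and ZEB2 +116.2 kb are highest in PEO4, TWIST1 +96.6 kb, TWIST2 +16.4 kb and PRRX1 +44.1 kb in PEO1, and CDH2 +1.3 kb in PEA1.

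CDH2 (chr18:25512843-25757910, minus strand) encodes N-cadherin, which replaces CDH1 at the junctions of mesenchymal cells. At CDH2 +0.4 kb, which holds its start, the window fell by 0.90 ± 0.23 in PEA2 (adjusted p = 0.000189), from a mean of 4.49 ± 1.00 to 2.35 ± 0.49 FPKM. In PEO4 all 6 CDH2 windows fell, by 0.62 to 2.18 on the log2 scale, but the 75 other windows of the 5 Mb also had a median of -0.64, and 2 of the 3 promoter windows turned to values just above 0 with the regional fold change removed. CDH2 +254.2 kb, downstream of the gene, was called: the PEO1 libraries read 2.02, 2.27 and 2.01 FPKM and the PEO4 libraries 0.291, 0.480 and 0.399 FPKM, the latter from 5 to 10 reads each, a fall of 2.18 ± 0.32 (adjusted p = 2.23e-07). That call was met in 10 of 16 alternative fits, and the value was -1.40 with GC correction. Only PEO1 libraries exceed 2 FPKM at CDH2 +254.2 kb, so the window entered the table through PEO1. A lower level in PEO4 was thus favoured in advance. In CP70, 3 of 4 CDH2 windows fell, by 0.65 to 0.97 on the log2 scale, where the 9 other windows tested in the 5 Mb had a median of -0.33 and all 13 windows tested in the stretch lay below 0.

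CDH11 (chr16:64977656-65160015, minus strand) had a single promoter window, over its start. Its libraries read 2.18, 2.77 and 2.40 FPKM in PEA1 and 0.824, 0.636 and 0.754 FPKM in PEA2, a fall of 1.60 ± 0.25 (adjusted p = 1.44e-09), and the regional median was 0.029 over 183 other windows. The PEA1 level lay at percentile 51.1 and those of the other 5 lines at 6.05 to 18.8. Only PEA1 libraries exceed 2 FPKM in this window, so it entered the table through PEA1. Its place above the other 5 lines was thus favoured in advance. In PEO4 the log2 fold change was 0.32 ± 0.27 (adjusted p = 0.299) with overlapping libraries.

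PRRX1 (chr1:170631869-170708562, plus strand) moved in opposite directions in the pairs from patients. All 4 of its windows rose in PEA2, and 3 of 4 fell in PEO4. At PRRX1 +0.0 kb, which holds the start, the PEA1 libraries read 2.08, 1.87 and 1.25 FPKM and the PEA2 libraries 3.68, 3.06 and 3.77 FPKM, a rise of 1.00 ± 0.23 (adjusted p = 4.23e-05), where the 98 other windows of the 5 Mb had a median of 0.55. The PEO1 libraries read 5.67, 5.76 and 5.46 FPKM and the PEO4 libraries 3.49, 4.03 and 3.69 FPKM, a fall of 0.58 ± 0.15 (adjusted p = 0.000887), where the 118 other windows of the 5 Mb had a median of -0.42. The PEO4 value was -0.24 after median centring (limma adjusted p = 0.152) and -0.22 with the 5 Mb median level removed (adjusted p = 0.209). In the latter setting the PEA2 value was 0.32 (adjusted p = 0.111). The intron window PRRX1 +44.1 kb read 0.481, 0.498 and 0.384 FPKM in PEA1 and 2.64, 1.56 and 2.00 FPKM in PEA2, a rise of 1.94 ± 0.28, and 6.78, 6.63 and 6.24 FPKM in PEO1 against 3.08, 3.12 and 3.59 FPKM in PEO4, a fall of 0.99 ± 0.15. With GC correction these values were 0.45 and -0.089. In A2780 and CP70 it averaged 0.377 and 0.362 FPKM, and the PRRX1 start had a log2 fold change of -0.13 ± 0.25 (adjusted p = 0.658).

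**Figure D4:**
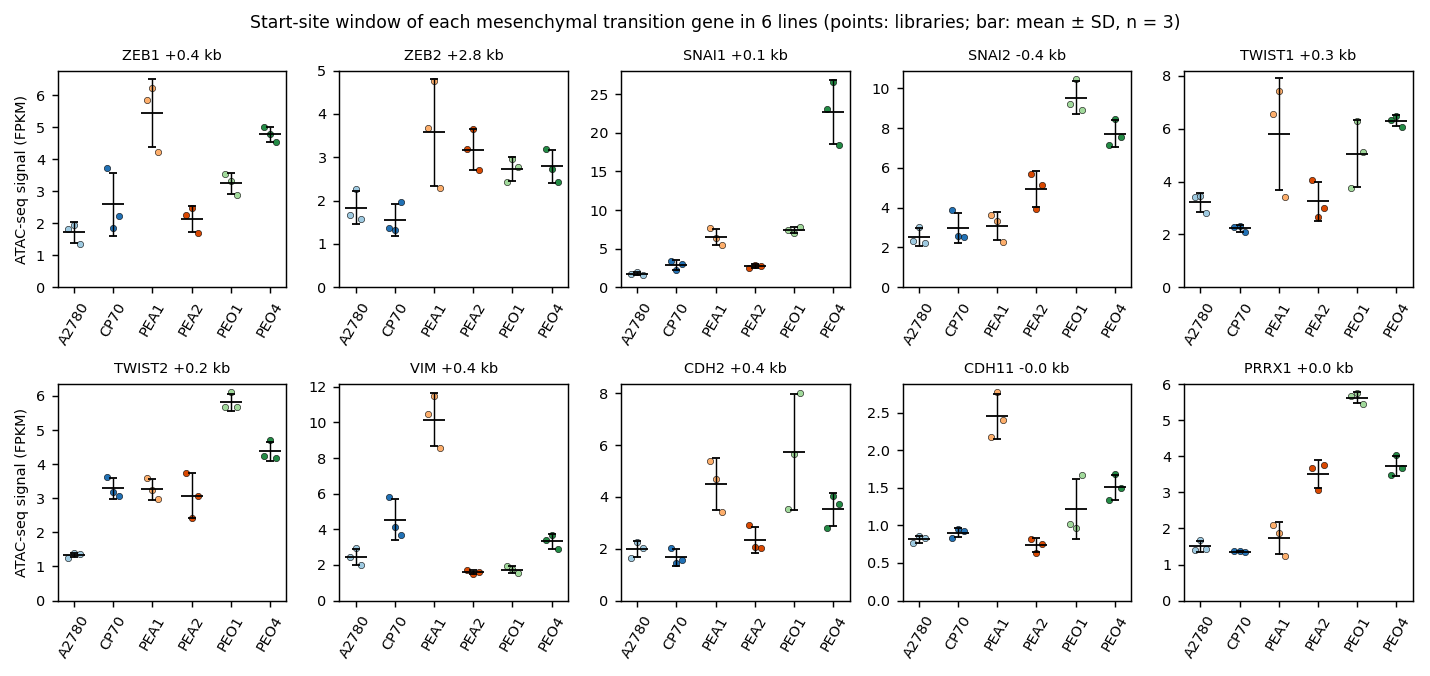
ATAC-seq signal (y axis, FPKM) of the start-site window of each gene in the 6 lines (x axis), with a point per library and the mean ± SD (n = 3), ZEB2 being shown at +2.8 kb because the table has no window at its canonical start. In FPKM, VIM, ZEB1 and CDH11 are highest in PEA1, SNAI1 in PEO4 (22.7 ± 4.1) and SNAI2, TWIST2 and PRRX1 in PEO1, while by percentile the latter 3 are higher in PEA2 (89.6, 71.0 and 77.2, with SNAI2 read at -0.4 kb) than in PEO1 (74.9, 55.5 and 54.1).

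The 6 lines were then compared in 1 fit over all 18 libraries. All 42 member windows tested differed among the lines (F test, adjusted p under 0.001), as did 97.9% of all windows tested, so this count says little about the members. Each line was set against the mean of the other 5, with the same thresholds as for a call. Where a count of calls is 0, limma gave from 1 to 13 member windows in that direction at an unadjusted p under 0.05. PEA1 had 3 member windows higher (0.711% of all windows) and 0 lower (1.79%), namely VIM -0.5 kb (2.09 ± 0.22), VIM +10.3 kb (2.43 ± 0.24) and VIM +11.2 kb (2.29 ± 0.25). VIM -0.5 kb exceeds 2 FPKM only in PEA1 libraries, and VIM +11.2 kb only in PEA1 and 1 CP70 library. The calls of these windows were favoured in advance. PEA2 had 0 higher (4.41%) and 1 lower (1.04%), ZEB2 +130.6 kb (-2.09 ± 0.24).

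PEO4 had 4 higher (10.4%) and 0 lower (0.333%), namely SNAI1 +0.1 kb (2.58 ± 0.16), SNAI1 +1.0 kb (2.40 ± 0.18), ZEB2 +130.6 kb (2.42 ± 0.24) and ZEB2 +116.2 kb (2.08 ± 0.21). PEO1 had 3 higher (20.8%) and 0 lower (0.673%), PRRX1 +44.1 kb (2.79 ± 0.20), TWIST1 +96.6 kb (2.59 ± 0.22) and ZEB2 +130.6 kb (2.15 ± 0.24). TWIST1 +96.6 kb exceeds 2 FPKM only in PEO1 libraries, and ZEB2 +130.6 kb only in PEO libraries. ZEB2 +116.2 kb exceeds it only in PEO4 and 1 PEA2 library. The higher calls of these windows were favoured in advance. A2780 had 0 higher (0.0499%) and 1 lower (7.84%), TWIST2 +16.4 kb (-2.66 ± 0.15). CP70 had 0 higher (0.178%) and 2 lower (9.54%), CDH2 +61.6 kb (-3.48 ± 0.24) and ZEB2 +42.4 kb (-2.09 ± 0.25). The counts changed direction with the scaling: after median centring PEO1 had 0 higher (3.16% of all windows) and 4 lower (6.005%), PEO4 0 higher (2.34%) and 2 lower (2.44%), and CP70 1 higher (1.34%) and 1 lower (1.85%). A2780 had 0 higher (0.616%) and 0 lower (0.186%), PEA2 0 higher (3.11%) and 1 lower (1.99%), and PEA1 5 higher (1.22%) and 0 lower (0.835%).

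By rank, the median percentile of the 23 member promoter windows was 66.9 in PEA1, 51.0 in A2780, 42.3 in PEA2, 38.8 in CP70, 38.3 in PEO4 and 28.1 in PEO1. PEA1 had 6 of the 23 above percentile 90, PEO4 had 1 and the other lines 0. For the 25 distal windows the medians lay between 48.6 in PEO1 and 69.7 in CP70.

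Whether a change differed between pairs was tested in the same fit as a difference of log2 fold changes. Between the PEA and the PEO pair, 10 of 42 member windows had a change at least 2 lower in the PEA pair (4.35% of all windows) and 4 a change at least 2 higher (19.8%). Those lower were VIM -0.5 kb, +0.4 kb, +1.3 kb, +2.2 kb, +10.3 kb and +11.2 kb, ZEB1 +1.3 kb, SNAI1 +0.1 kb, SNAI1 +1.0 kb and ZEB2 +130.6 kb. Those higher were PRRX1 +0.9 kb, PRRX1 +44.1 kb, TWIST2 +79.4 kb and TWIST1 +96.6 kb. TWIST1 +96.6 kb exceeds 2 FPKM only in PEO1 libraries, VIM -0.5 kb only in PEA1 libraries, and VIM +11.2 kb in PEA1 and 1 CP70 library. The differences of these windows between the pairs were favoured in advance. ZEB2 +130.6 kb exceeds 2 FPKM only in PEO libraries, so it entered the table through them. Between the PEA and the A2780 pair, 6 were lower (3.87%), again 5 of VIM and ZEB1 +1.3 kb, and 1 was higher (8.76%), PRRX1 +44.1 kb. Among the VIM windows, VIM -0.5 kb and VIM +11.2 kb were favoured in advance here as well. Between the PEO and the A2780 pair, 1 was lower (5.96%), TWIST2 +16.4 kb, and 0 were higher (1.43%), with 8 higher at an unadjusted p under 0.05 by limma.

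Other genes of the pathway were read at the window holding their canonical start, in lists chosen with results of these data known. Of 44 further mesenchymal genes 30 had such a window. In PEA2, 4 of 26 rose and 10 fell, against 20.9% and 32.7% of all promoter windows, with a median log2 fold change of -0.15 against -0.17. SPARC, a matrix glycoprotein, rose by 2.36 and was called, and CALD1, an actin-binding protein, rose by 1.36, while LOXL2, a collagen crosslinker, and AXL, a receptor tyrosine kinase, fell by 1.53 and 1.31. In CP70, 8 of 25 rose and 3 fell, against 47.4% and 1.39% of all promoter windows, among them the ligand TGFB1 (1.15) and S100A4 (1.01) against TGFB2 (-1.40) and TCF4 (-1.28). In PEO4, 7 of 26 rose and 7 fell, against 24.9% and 32.4%, with the collagen VI genes COL6A2 (2.62, called) and COL6A1 (1.49) highest and CALD1 (-1.67) and TGFB2 (-1.55) lowest.

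Of 24 epithelial genes, which the member repressors are known to silence or which oppose them, 22 had a start-site window. In PEA2, 14 of 20 rose and 5 fell, against the same 20.9% and 32.7%, with a median log2 fold change of 0.89 against -0.17. ESRP1, an epithelial splicing regulator, rose by 2.10 and was called, and OVOL2, a repressor of ZEB1, rose by 1.90, whereas the polarity gene LLGL2 and the keratin KRT18 fell by 0.95 and 0.83. CDH1 (E-cadherin) rose by 1.21 in PEA2 (adjusted p = 2.78e-06) and by 0.42 in PEO4 (adjusted p = 0.0275). In CP70, 5 of 11 rose and 0 fell (47.4% and 1.39% of all promoter windows), led by OCLN (1.43) and KRT18 (1.14). In PEO4, 10 of 22 rose and 2 fell (24.9% and 32.4%), with OVOL1 (0.97) and LLGL2 (0.81) highest and OVOL2 (-0.81) and ELF3 (-0.34) lowest. The median percentile of the 22 epithelial starts was 20.1 for PEA1 against 61.4 for PEA2, 62.4 for PEO1 against 76.9 for PEO4, and 19.8 for A2780 against 21.7 for CP70.

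**Figure D5:**
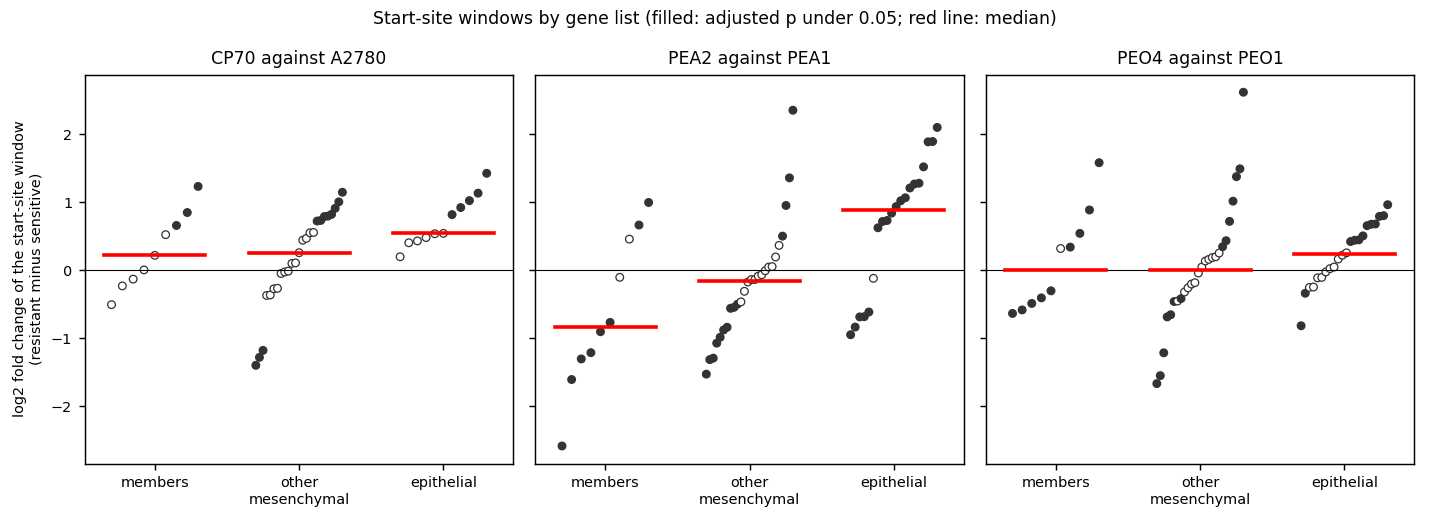
Log2 fold change (y axis, resistant minus sensitive) of the start-site windows tested in each pair, for the member genes, the other mesenchymal genes and the epithelial genes (x axis), with filled points at an adjusted p under 0.05 and a red line at the median. In PEA2 the medians of the other mesenchymal and the epithelial genes are -0.15 and 0.89.

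The 3 member start windows with the widest range of line means on the log2 scale were SNAI1, VIM and TWIST2, and their pattern over the 18 libraries was compared with the start windows of 13719 other genes by Pearson's r on log2(FPKM + 0.1). Most like SNAI1 were TIMP2 (0.991), CEBPB (0.989) and GPAA1 (0.988), and 1145 genes exceeded 0.9. Most like VIM were SGSM2 (0.914), THBS3 (0.884) and ATP8B2 (0.880), and only SGSM2 exceeded 0.9. Most like TWIST2 were PLEKHH1 (0.974), CACHD1 (0.966) and GOLGA8B (0.965), with 333 genes above 0.9. Among the members, r was 0.95 between the PRRX1 and SNAI2 (-0.4 kb) starts and -0.56 between those of PRRX1 and VIM. All these values share the libraries and their share of reads in windows, and libraries of 1 line are not independent points.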

How the data were processed

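ATAC-seq libraries of 6 lines, 3 per line, were grouped by the cell line named in the labels. The deposited values are FPKM that the authors computed with the rpkm function of edgeR from featureCounts read counts in windows stepped by 900 bp, after duplicate marking (Picard), unique alignment (Bowtie2, hg19) and removal of blacklisted and mitochondrial reads. Tool versions are not given in the sources used here. Because all windows have 1 length (1001 bp), the deposited FPKM are RPM (reads scaled to library size) divided by a constant, and 100% of the values were whole reads within 0.01 of a read. All 89428 windows exceed 2 FPKM in at least 2 libraries. A window that does so in 1 line or pair alone is in the table because it is high there. Its contrast with the other lines was favoured in advance.

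Each pair was fitted with limma 3.58.1 (R 4.3.3; lmFit and eBayes with trend) on log2(FPKM + 0.1) over all windows with a mean above 1 FPKM in the pair, with Benjamini-Hochberg adjustment over all windows tested. The trend stood in for the voom weights of the study. A fit of all 18 libraries gave the F test, each line against the other 5 and the differences between pairs. Fold changes on this scale understate the change of low windows. The pair fit was run on simulated reads with known changes in some windows. That simulation held no difference between lines in the share of reads in windows, and the 18-library fit was not simulated. Gene models and windows were joined by GENCODE release 44 on GRCh37, and sequence was read from GRCh37.

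The members, gene lists and tests were chosen with earlier results of these data known. The rule for naming single windows took each window holding a canonical start, up to 3 called distal windows per pair and direction whose libraries did not overlap, and the distal window of each gene with the highest mean, and for the gene lists up to 2 genes per direction with the largest change. Windows named beside these were chosen after their values were seen. Alternatives covered the pseudocount, the filter, centring, quantile normalization, GC content, medians of 5 Mb stretches, edgeR 4.0.16 and DESeq2 1.42.0 on recovered reads, the thresholds, the reach around genes, the replicate number and leaving out each library. The sequence of 1 further region is not reported here.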

Additional observations from a re-analysis of the deposited data

Results flagged for a closer look

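The differences below stood out because the change within one pair differed from the change within another, by a limma contrast over all 18 libraries (log2 difference above 2 in size, adjusted p under 0.001). Each library set has 3 libraries per line. VIM -0.5 kb exceeds 2 FPKM only in PEA1 libraries, VIM +11.2 kb in PEA1 and 1 CP70 library, and TWIST1 +96.6 kb only in PEO1 libraries. The differences of these windows below were favoured in advance. ZEB2 +130.6 kb exceeds 2 FPKM only in PEO libraries, so it entered the table through them.

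The change in the PEA pair was lower than in the PEO pair at VIM -0.5 kb (by a difference of -4.08, adjusted p = 2.76e-13), VIM +0.4 kb (-3.47, 2.33e-15), VIM +1.3 kb (-3.17, 1.24e-12), VIM +2.2 kb (-2.17, 6.1e-09), VIM +10.3 kb (-2.86, 1.48e-07) and VIM +11.2 kb (-2.67, 8.86e-07). It was also lower at ZEB1 +1.3 kb (-2.82, 5.36e-10), SNAI1 +0.1 kb (-2.79, 1.72e-12), SNAI1 +1.0 kb (-3.24, 1.03e-12) and ZEB2 +130.6 kb (-2.01, 9.83e-05), and higher at PRRX1 +0.9 kb (2.03, 5.07e-08), PRRX1 +44.1 kb (2.93, 7.27e-10), TWIST1 +96.6 kb (3.03, 4.58e-09) and TWIST2 +79.4 kb (2.29, 2.68e-08).

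Against the A2780 pair, the change in the PEA pair was lower at VIM -0.5 kb (-2.77, adjusted p = 5.47e-08), VIM +0.4 kb (-3.43, 3.7e-14), VIM +1.3 kb (-3.52, 3.45e-13), VIM +10.3 kb (-3.86, 2.54e-10), VIM +11.2 kb (-3.36, 1.28e-08) and ZEB1 +1.3 kb (-2.71, 5.16e-09), and higher at PRRX1 +44.1 kb (2.06, 4.97e-06). The change in the PEO pair was lower than in the A2780 pair at TWIST2 +16.4 kb (-2.05, 3.23e-08). With the 5 Mb median of each library removed, 13 member windows were lower (5.41% of all windows) and 0 higher (6.57%) in the PEA pair against the PEO pair, and 3 were lower (1.73%) and 0 higher (4.12%) against the A2780 pair.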

How the results depend on the processing

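Of 1055 refits of single promoter windows, 819 kept direction and side of an adjusted p of 0.05, 104 kept direction and lost it, 56 gained it and 76 turned in sign. With thresholds of 1 and 0.05, the member windows called higher and lower numbered 4 and 1 for CP70, 8 and 17 for PEA2 and 5 and 4 for PEO4. The shares of all windows past these looser thresholds are not given here, so these counts cannot be set against the table. The 1 window called higher in PEA2 became 0 with pseudocount 1, median centring, quantile normalization, either 5 Mb setting (median level or median fold change removed), DESeq2 or a reach of 0 kb, 4 with edgeR and 2 with a reach of 50 kb, and lay between 1 and 4 when 1 library was left out (4 without PEA2 replicate 2, 2 without any 1 of the PEA1 replicates). Over all windows, 7436 of 66103 were called higher in PEA2 in the main fit. This number was 707 with pseudocount 1, 4569 with median centring, 3360 with quantile normalization, 6256 with DESeq2 and 8612 with edgeR. It was 2005 and 2498 of 65660 with the 5 Mb median level and fold change removed, and 5693 to 8174 without 1 library. The 8 called lower in PEA2 became 2 with pseudocount 1, 4 above a mean of 2 FPKM, 3 and 2 with the 5 Mb median level and fold change removed, and 4 with a reach of 0 kb. Over all windows, 938 of 66103 were called lower in PEA2 in the main fit and 72 with pseudocount 1. This number was 300 of 31202 above a mean of 2 FPKM, and 902 and 809 of 65660 with the 5 Mb median level and fold change removed. In PEO4, 1 was called higher with median centring, quantile normalization, GC correction, DESeq2 or 50 kb, and 0 to 1 without 1 library (1 without PEO1 replicate 2 or PEO4 replicate 3), while the 1 lower became 0 with pseudocount 1, a mean above 2 FPKM, median centring, quantile normalization, GC correction, both 5 Mb settings or 0 kb, and 3 with 50 kb. Over all windows, 2109 of 77654 were called higher in PEO4 in the main fit. This number was 3165 to 3390 with centring, quantile normalization, GC correction or DESeq2, and 1889 to 2244 without 1 library. Called lower were 4485 in the main fit and 617 with pseudocount 1. The number lower was 2523 with centring, 2595 with quantile normalization, 1648 with GC correction, 2441 of 55336 above a mean of 2 FPKM, and 1384 and 1506 of 77378 in the 5 Mb settings. Reading canonical starts alone leaves 10 promoter windows.

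For the 18-library fit, alternatives chosen after seeing the data gave these counts. Against the 14 calls of a line against the other 5, pseudocount 1 gave 1, higher in PEO4 (2.39% of all windows). It gave 5 in place of 14 for PEA against PEO, 3 in place of 7 for PEA against A2780 and 0 in place of 1 for PEO against A2780. The shares of all windows higher and lower with pseudocount 1 were 7.90% and 1.02% for PEA against PEO and 1.025% and 0.433% for PEA against A2780. For PEO against A2780 they were 0.227% and 1.16%. The 5 Mb median level removed gave 8 calls of a line: 1 higher in CP70 (0.456% of all windows) and PEA1 (0.769%), and 1 lower in PEA2 (1.30%) and PEO4 (1.28%). The rest were 4 lower in PEO1 (2.96%). It gave 3 lower for PEA against A2780 (1.73%), and median centring gave 3 higher for PEO against A2780 (3.96%).

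Values that turned in sign were as follows, where L and F stand for the 5 Mb median level and fold change removed. For the A2780 pair, SNAI1 +0.1 kb gave -0.034 (L), -0.010 (F), and SNAI1 -0.8 kb gave -0.16 (L), -0.14 (F), -0.042 (centring), -0.025 (quantile), -0.085 (GC), -0.045 (DESeq2). SNAI2 +0.5 kb gave -0.44 (L), -0.38 (F), -0.57 (centring), -0.47 (quantile), -0.41 (GC), -0.57 (DESeq2), -0.19 to 0.25 without 1 library, and SNAI2 -0.4 kb gave -0.23 (L), -0.16 (F), -0.36 (centring), -0.38 (quantile), -0.31 (GC), -0.39 (DESeq2). VIM -0.5 kb gave -0.22 to 0.026 without 1 library, and ZEB1 +0.4 kb gave -0.18 (L), -0.23 (F), -0.052 (centring), -0.089 (quantile), -0.10 (GC), -0.045 (DESeq2). ZEB1 +1.3 kb gave -0.11 (L), -0.16 (F), -0.050 (GC), and ZEB2 +3.7 kb gave -0.33 to 0.12 without 1 library. For the PEA pair, SNAI2 +0.5 kb gave -0.60 (L), -0.33 (F), -0.41 (GC), and SNAI2 -0.4 kb gave -0.39 (L), -0.12 (F). TWIST2 +0.2 kb gave 0.090 (GC), -0.25 to 0.053 without 1 library, and TWIST2 -0.7 kb gave 0.12 (GC). ZEB2 +2.8 kb gave 0.053 (GC), -0.40 to 0.11 without 1 library. For the PEO pair, CDH2 +0.4 kb gave 0.10 (L), 0.020 (F), and CDH2 -0.5 kb gave 0.027 (L). CDH2 -1.4 kb gave 0.12 (L), 0.037 (F), and PRRX1 -1.8 kb gave 0.25 (L), 0.33 (F), 0.23 (centring), 0.29 (quantile), 0.46 (GC), 0.13 (DESeq2), -0.40 to 0.040 without 1 library. SNAI2 +0.5 kb gave 0.12 (L), 0.29 (F), 0.14 (GC), and SNAI2 -0.4 kb gave 0.30 (L), 0.47 (F), 0.044 (centring), 0.0099 (DESeq2). TWIST2 -0.7 kb gave 0.14 (centring), 0.22 (quantile), 0.091 (DESeq2), and ZEB2 +2.8 kb gave -0.43 (L), -0.50 (F), -0.082 (GC), -0.070 to 0.12 without 1 library. ZEB2 +3.7 kb gave -0.27 (L), -0.34 (F), -0.19 to 0.38 without 1 library. The cause was not tested.

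Over all windows, median centring moved the calls from 159 higher and 137 lower to 40 and 234 for CP70, from 7436 and 938 to 4569 and 1797 for PEA2, and from 2109 and 4485 to 3255 and 2523 for PEO4. The replicate numbers did not pair the samples (same-number correlations of deviations from -0.158 to 0.0643), and the replicate block left every count of member calls unchanged (0 and 0, 1 and 8, 0 and 1). Windows of a few reads, such as VIM +6.7 kb with 1, 1 and 2 reads in PEO1, carry little precision.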
